A study of Arabidopsis thaliana with 12 samples.

Results

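Membrane-tethered NAC transcription factors (NTLs) were examined in Arabidopsis roots as a set of 10 genes, named by their locus identifiers from the published NTL family. The set is not the whole family, and 5 further tethered genes are described below. All 10 were present among the 25872 genes of the expression table, and 9 of the 10 were among the 20773 genes that passed the filter on low values. Roots of wild-type plants (WT) and of plants that carry the soybean gene *GmNTL4* under the 35S promoter (*GmNTL4*-OX, here OX) were sequenced without Al (control) and with 5 µM AlCl3, with 3 libraries in each of the 4 groups. The methods give a dilute nutrient solution at pH 4.5, without phosphate and with 0.5 mM CaCl2. Their RNA-seq section describes this medium with Al only, and does not state that of the control groups. The methods give 48 h of Al while the sample labels give 24 h, and the sources used here do not say which transgenic line was sequenced. The 35S promoter is active in most cells of the plant. The level of the soybean transgene itself was not analysed here, so the overexpression label was not checked, and reads of the transgene that were assigned to an Arabidopsis gene would be counted in it, which was not tested. Nothing in the labels says that the replicates came from separate cultures, so the p-values measure the spread between these libraries, which may be technical.

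An NTL protein holds a DNA-binding NAC domain at its N-terminus and a single hydrophobic stretch near its C-terminus, which anchors the factor in the plasma membrane, the endoplasmic reticulum or another membrane. Under stress the NAC part is cut from the anchor by a membrane protease and enters the nucleus, so that activity can be raised from stored protein without new transcription. The transcript levels described here are levels of RNA, so they show neither the amount of stored protein nor its release. In Arabidopsis the family includes factors of proteasome, mitochondrial, endoplasmic reticulum and defence responses. One of them, *NAC053* (*NTL4*), bears the same NTL number as the soybean transgene. The soybean genes were numbered by chromosome position, so the shared number does not show kinship.

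The hydrophobic stretch was checked in the reference coding sequences. For all 10 genes, at least 1 RefSeq transcript encoded a window of 19 codons within its last 60 codons whose mean Kyte-Doolittle hydropathy was at least 1.6, a usual limit for a membrane span. The same holds for 11.8% of 27425 coding genes and for 6 of 107 other NAC domain genes (5.61%). Those 6 were *NAC028* and the 5 further tethered genes *NTM1*, *NAC069*, *NAC060*, *NAC089* and *NAC001*. The 10 genes were chosen as membrane-bound, so their share follows from the choice and is not a test. For *NTL9* only the transcript of 512 codons encodes it, with a mean of 1.92, while in those of 534 and 533 codons the last 60 codons reach -0.47. *NAC016* (transcripts of 447 and 459 codons) and *NAC062* (409 codons) also have annotated forms without it. Values per gene add these forms together, so tethered and untethered transcripts of *NTL9*, *NAC016* and *NAC062* cannot be told apart here.

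The coding DNA of this window is shown for the 3 closest pairs of genes, because reads of near-identical stretches can be assigned to either copy, and for *NTL9*, whose anchor depends on the transcript. Sequences are from RefSeq (TAIR10.1), read 5′ to 3′ on the coding strand. Capitals mark bases identical to those of the closest of the 10 genes at the best ungapped alignment. *NAC053* (chr3:3273801-3273857, plus strand) and *NAC078* (chr5:1246339-1246395, plus) shared 42 of 48 compared bases (87.5%). *NAC017* (chr1:12453816-12453872, plus) and *NAC016* (chr1:12451028-12451084, plus) shared 50 of 57 (87.7%). *NAC062* (chr3:18362660-18362716, minus) and *TIP* (chr5:8416926-8416982, minus) shared 35 of 48 (72.9%). *NTL9* (chr4:16888605-16888661, minus) was closest to *NAC014*, with 25 of 48 bases (52.1%).
NAC053: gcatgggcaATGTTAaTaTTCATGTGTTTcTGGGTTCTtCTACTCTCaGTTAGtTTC
NAC078: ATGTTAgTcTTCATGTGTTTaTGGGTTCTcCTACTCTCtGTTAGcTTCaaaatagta
NAC017: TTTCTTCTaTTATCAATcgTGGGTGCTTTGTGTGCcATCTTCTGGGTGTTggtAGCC
NAC016: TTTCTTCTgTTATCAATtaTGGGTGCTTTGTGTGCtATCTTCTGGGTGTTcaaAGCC
NAC062: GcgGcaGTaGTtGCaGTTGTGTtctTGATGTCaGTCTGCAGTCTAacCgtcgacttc
TIP: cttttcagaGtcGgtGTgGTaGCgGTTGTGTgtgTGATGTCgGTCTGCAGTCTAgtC
NTL9: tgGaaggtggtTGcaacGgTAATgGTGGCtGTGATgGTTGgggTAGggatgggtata

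Over the whole coding sequence, *NAC017* and *NAC016* were 76.0% identical, *NAC053* and *NAC078* 73.4% and *NAC062* and *TIP* 66.5%. *NAC016* and *NAC017* lie head to tail on chromosome 1 with 117 bases between their annotated ends, and *NAC053* begins 14 bases after the NAC gene *NAC052*. On the opposite strand, gene models overlap *NAC078* by 375 and 81 bases and *NAC013* by 20 bases. The strand setting of the counting is not given in the sources used here, so reads in these overlaps cannot be assigned to 1 gene with certainty.

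The libraries held 16162941 to 17136217 fragments on genes. All 8 root markers, among them *SHR*, *SCR* and the Casparian strip gene *CASP1*, were above 0 in every library, with summed values of 78.8 to 153 FPKM (fragments scaled by gene length and by library size). The 8 green-tissue markers, mainly photosynthesis genes, summed to 176.5, 282.8 and 250.3 FPKM in WT control 1, WT Al 2 and WT Al 3 and to 24.1 to 62.7 FPKM in the other 9 libraries, where *LHCB1.1*, a light-harvesting gene, was at 0 in 3. The Al-response genes *ALMT1*, *MATE* and *ALS3* summed to 26.8 and 47.1 FPKM in control replicate 1 of WT and OX, to 169.6 to 292.5 FPKM in the other 4 control libraries and to 303.0 to 580.1 FPKM with Al. For Al, 0 of the 3 reached an adjusted p of 0.05 in either genotype or over both (limma). In WT the control and Al libraries of *MATE* and *ALS3* overlapped and those of *ALMT1* did not. In OX all 3 were higher without overlap (9.11% of all genes). Some results are also given without the 3 libraries high in green-tissue markers or without control replicate 1 of both genotypes. In whole roots, fewer cells of a type and less RNA per cell cannot be told apart.

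The 10 genes spanned a wide range of transcript levels, from well expressed to barely detected. As means of FPKM over the 12 libraries, the order was *NAC053* (57.6), *NAC078* (50.7), *NAC062* (45.9), *NAC017* (40.2), *NAC013* (38.9), *NTL9* (35.2), *TIP* (31.7), *NAC016* (13.0), *NAC014* (11.4) and *NTL8* (0.184). The median gene tested had a mean of 10.99 FPKM, and 90.3% of the tested genes had a lower mean than *NAC053*. The order of neighbours was firm at 2 steps, since *TIP* exceeded *NAC016* and *NAC014* exceeded *NTL8* in 12 of 12 libraries. *NAC053* exceeded *NAC078* in 10 of 12 and *NTL9* exceeded *TIP* in 10 of 12, whereas *NAC017* and *NAC013* each led in 6 libraries, and the remaining 4 neighbouring pairs kept their order in 8 or 9 of 12.

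*NTL8* (AT2G27300, chr2:11680276-11681971, minus strand) was the member of the 10 that failed the filter. In Arabidopsis it delays germination under salt and activates the trichome repressor gene *TRY*. It was at 0.0502 to 0.311 FPKM, from 1 to 6 fragments per library and 43 in all, and no difference between groups was detectable at this depth. *TRY* and *FT*, a pair of its known targets, were at 0 to 7 and 0 to 1 fragments per library.

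**Figure D1:**
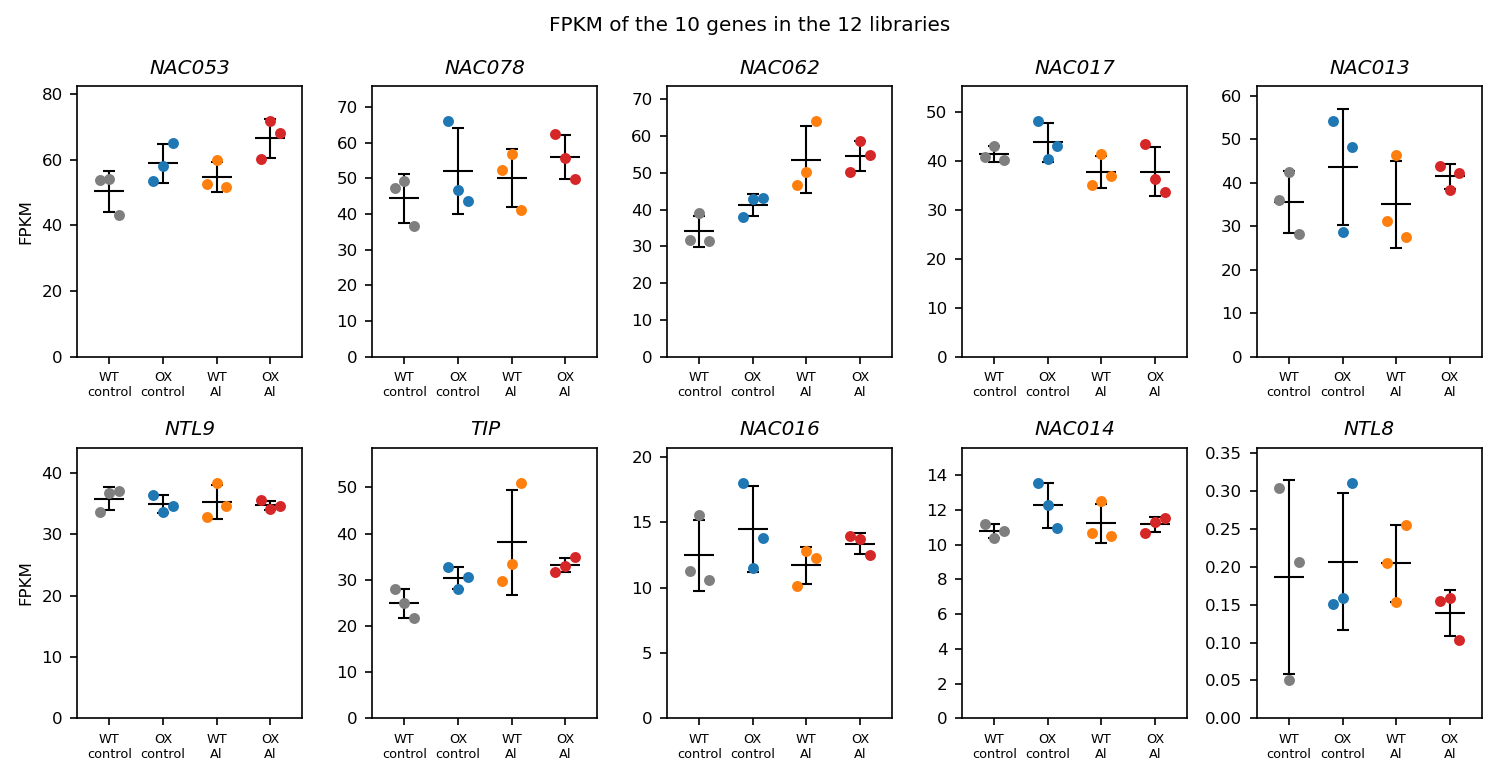
FPKM (vertical axis, from 0, scaled separately for each gene) of the 10 membrane-tethered NAC genes in the 3 libraries of each of the 4 groups. Points are libraries, in the order of replicates 1, 2 and 3, and bars give the mean and SD (n = 3). *NAC062* was higher in every Al library than in every control library, *NTL9* hardly moved, and the largest value of *TIP*, 51.0, came from WT Al 3.

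No member passed the test in any comparison, with the limits set at 0.05 for the adjusted p and at 2-fold for the change (limma on log2(FPKM + 0.5), Benjamini-Hochberg over 20773 genes). That gave 0 of 9 for OX against WT under Al, where 0.0385% of all tested genes were called, and 0 of 9 in control (0.0433%). It gave 0 of 9 for Al against control in WT (0.332%) and in OX (0.862%), and 0 of 9 for the interaction of genotype and Al, where 0 genes were called (0%). At an unadjusted p under 0.05, 1 member was higher in OX under Al (4.9% of all genes), 0 in control (2.88%), 2 with Al in WT (6.51%), 1 with Al in OX (6.61%) and 0 for the interaction (4.98% in either direction), and 0 were lower. Limma voom on fragments read back from the FPKM also called 0 members in each comparison. The fold changes are on the log2(FPKM + 0.5) scale, which understates the change of low genes.

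The differences could be bounded only by the spread between these libraries, which may be technical. The 95% confidence intervals of all 9 members lay inside a 2-fold change in each of the 4 group comparisons, with the outermost bounds at -0.585 and 0.949 on the log2 scale. Of all tested genes, 78% to 82.5% had intervals inside that limit.

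**Figure D2:**
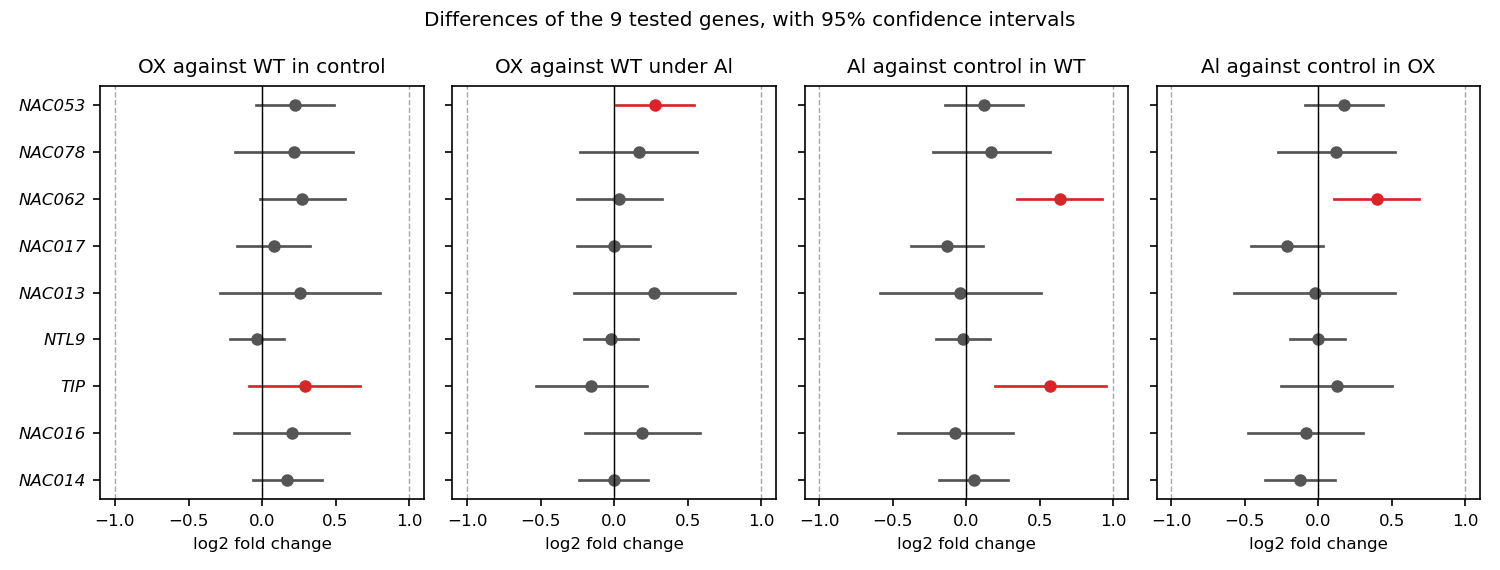
Log2 fold change (horizontal axis) of the 9 tested genes in the 4 group comparisons. Points are estimates from limma, lines are 95% confidence intervals, and dashed lines mark a 2-fold change. Red marks genes whose 3 and 3 libraries did not overlap, which were *TIP* in control, *NAC053* under Al, *NAC062* and *TIP* for Al in WT, and *NAC062* for Al in OX.

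*NAC062* (*NTL6*, AT3G49530, chr3:18362443-18364959, minus strand), a plasma membrane-anchored factor that acts in cold-induced defence and in the unfolded protein response, was the member with the clearest difference between control and Al. It was at 31.9, 39.0 and 31.6 FPKM in the WT control libraries and at 37.9, 42.9 and 43.1 FPKM in the OX control libraries. With Al it was at 46.6, 50.1 and 64.0 FPKM in WT and at 50.3, 58.5 and 54.8 FPKM in OX. Every Al library thus exceeded every control library, with the closest at 46.6 and 43.1 FPKM.

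In WT the group means of *NAC062* were 34.2 ± 4.21 FPKM in control and 53.6 ± 9.17 FPKM with Al (SD, n = 3 each), a log2 fold change of 0.64 (1.55-fold, SE 0.13, limma adjusted p = 0.0712), and 0.40 without the 3 libraries high in green-tissue markers (limma adjusted p = 0.469). In OX they were 41.3 ± 2.94 and 54.5 ± 4.10 FPKM (SD, n = 3 each), a log2 fold change of 0.40 (SE 0.13, limma adjusted p = 0.190). Neither passed the threshold, and 8.25% of all genes in WT and 9.11% in OX were likewise higher with Al without overlap. The Al effects in WT and OX were not shown to differ (interaction -0.24, SE 0.19, limma adjusted p = 0.953). OX against WT gave 0.27 in control (SE 0.13, limma adjusted p = 1) and 0.04 under Al (SE 0.13, limma adjusted p = 0.940).

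Averaged over both genotypes, a contrast added after the values were seen, *NAC062* rose with Al by 0.52 on the log2 scale (1.43-fold, 95% confidence interval 0.312 to 0.720, limma adjusted p = 0.0103), below the 2-fold limit. All 6 Al libraries exceeded all 6 control libraries, as for 1.05% of all genes, and 5.13% of all genes reached an adjusted p of at most 0.05 in this contrast. Leaving out each library in turn gave 0.45 to 0.57 with limma adjusted p of 0.00979 to 0.0374, and leaving out control replicate 1 of both genotypes gave 0.46 (limma adjusted p = 0.0382). Leaving out the 3 WT libraries high in green-tissue markers gave 0.40, and the adjusted p was then above 0.05. That fit left 1 Al library in WT, which was assumed to vary like the others. The part of green tissue in this result was not tested beyond that.

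The 250 bases upstream of the annotated start of *NAC062* (RefSeq, TAIR10.1, chr3:18364960-18365209, minus strand) are shown because this was the gene that moved most with Al, and capitals mark CATGT, a core of sites bound by NAC factors, which lies here on the other strand and reads ACATG, starting 218 bases before the gene.
NAC062 upstream: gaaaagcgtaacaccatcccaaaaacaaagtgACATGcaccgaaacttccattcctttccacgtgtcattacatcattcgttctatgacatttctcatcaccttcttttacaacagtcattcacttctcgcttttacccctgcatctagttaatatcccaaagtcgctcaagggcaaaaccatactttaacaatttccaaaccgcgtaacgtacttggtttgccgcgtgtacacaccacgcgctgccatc
CATGT on either strand was present in the same window of 4 of the 10 members (*NAC078*, *NAC014*, *NAC062* and *NTL8*) and of 35.5% of all 37897 annotated genes. The mitochondrial dysfunction motif is bound by *NAC013* and *NAC017* products. A loose form of it was present upstream of *NAC017* alone among the 10 members and of 1.84% of all genes. TGGGC, part of the proteasome-gene element bound by *NAC053* and *NAC078* products, was upstream of 5 of 10 members (50%) and of 20.5% of all genes. These are matches of letters, not binding sites.

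*TIP* (AT5G24590, chr5:8416375-8419076, minus strand), first known as the partner of a viral coat protein and the closest relative of *NAC062* by the comparison above, was uneven between libraries. It was at 28.0, 24.9 and 21.8 FPKM in WT control, 32.7, 28.0 and 30.6 FPKM in OX control, 29.7, 33.5 and 51.0 FPKM in WT with Al and 31.8, 33.0 and 34.8 FPKM in OX with Al. WT control was the lowest group and WT Al 3 stood alone at the top, in the library where *NAC062* was also highest of all 12 and where green-tissue markers summed to 250.3 FPKM.

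Al against control gave a log2 fold change of *TIP* of 0.57 in WT (SE 0.17, limma adjusted p = 0.182), without overlap, and of 0.34 without WT Al 3 (limma adjusted p = 0.312). Without the 3 libraries high in green-tissue markers it was 0.35 (limma adjusted p = 0.480). In OX it was 0.13 (SE 0.17, limma adjusted p = 0.818) with overlapping libraries, and the interaction was -0.45 (SE 0.24, limma adjusted p = 0.940). In control OX exceeded WT without overlap by 0.29 (SE 0.17, limma adjusted p = 1), but the closest libraries were 27.99 and 27.98 FPKM, and 3.93% of all genes were higher in OX without overlap. Under Al the difference was -0.16, and it turned to 0.07 without WT Al 3 and to 0.16 without the 3 libraries high in green-tissue markers. Over both genotypes Al gave 0.35 (limma adjusted p = 0.142).

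*NAC053* (*NTL4*, AT3G10500, chr3:3271217-3274176, plus strand), which in Arabidopsis promotes reactive oxygen production during drought-induced leaf senescence and, with *NAC078*, induces proteasome genes, was the most abundant member. It was at 53.8, 54.1 and 43.2 FPKM in WT control, 53.5, 58.1 and 65.2 FPKM in OX control, 52.6, 59.98 and 51.5 FPKM in WT with Al and 60.04, 71.6 and 67.9 FPKM in OX with Al. OX with Al was the highest group, and its lowest library stood just above the highest of WT with Al.

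Under Al the means of *NAC053* were 54.7 ± 4.60 FPKM in WT and 66.5 ± 5.92 FPKM in OX (SD, n = 3 each), a log2 fold change of 0.28 (1.21-fold, SE 0.12, limma adjusted p = 0.446), and 8.77% of all genes were higher in OX without overlap. Without the 3 libraries high in green-tissue markers it was 0.33 (limma adjusted p = 0.667). In control it was 0.23 (SE 0.12, limma adjusted p = 1) with overlapping libraries. Over both treatments, a contrast added after the values were seen, it was 0.25 (limma adjusted p = 0.428, unadjusted p = 0.0129), where 4.7% of all genes were higher at an unadjusted p under 0.05. Al against control gave 0.12 in WT and 0.18 in OX, with limma adjusted p of 0.738 and 0.592. *NAC052*, its neighbour 14 bases upstream, gave 0.12 for OX against WT under Al (limma adjusted p = 0.810).

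*NAC078* (AT5G04410, chr5:1243684-1246684, plus strand), the close relative of *NAC053* that also acts in flavonoid synthesis under high light, varied more between replicates. It was at 47.3, 49.3 and 36.5 FPKM in WT control, 66.0, 46.7 and 43.7 FPKM in OX control, 52.3, 56.9 and 41.1 FPKM in WT with Al and 62.5, 55.7 and 49.9 FPKM in OX with Al. All groups overlapped, and its log2 fold changes were 0.12 to 0.22 in the 4 comparisons with limma adjusted p of at least 0.756.

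*NAC017* (AT1G34190, chr1:12451405-12454542, plus strand), which relays mitochondrial dysfunction to the nucleus and activates *AOX1A*, was at 40.8, 43.1 and 40.1 FPKM in WT control and 48.1, 40.3 and 43.0 FPKM in OX control. With Al the WT libraries were at 34.96, 41.3 and 37.0 FPKM, and those of OX at 43.4, 36.2 and 33.7 FPKM. The Al values were the lower ones on average in each genotype, with log2 fold changes of -0.13 in WT (limma adjusted p = 0.684) and -0.21 in OX (limma adjusted p = 0.441), and the libraries overlapped.

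Its tandem neighbour *NAC016* (AT1G34180, chr1:12448543-12451287, plus strand), a regulator of leaf senescence and drought response, was at 11.3, 15.6 and 10.6 FPKM in WT control, 18.01, 11.5 and 13.8 FPKM in OX control, 10.1, 12.8 and 12.2 FPKM in WT with Al and 13.9, 13.7 and 12.5 FPKM in OX with Al. *NAC013* (AT1G32870, chr1:11911631-11913947, plus strand), which like *NAC017* drives mitochondrial dysfunction genes, was at 36.1, 42.5 and 28.2 FPKM in WT control, 54.1, 28.7 and 48.2 FPKM in OX control, 31.3, 46.3 and 27.5 FPKM in WT with Al and 43.9, 38.2 and 42.2 FPKM in OX with Al. *NAC013* had the largest spread within groups of the 9 tested members, an SD of 0.346 on the log2 scale against a median of 0.221 over all genes. OX against WT gave 0.26 and 0.27 in control and under Al for *NAC013*, with standard errors of 0.25, and 0.20 and 0.19 for *NAC016*, with standard errors of 0.18.

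*NTL9* (AT4G35580, chr4:16888386-16890877, minus strand), a calmodulin-binding NAC factor that represses defence genes, was the steadiest member. It was at 33.7, 36.8 and 37.0 FPKM in WT control, 36.5, 33.7 and 34.5 FPKM in OX control, 32.9, 38.4 and 34.6 FPKM in WT with Al and 35.6, 34.1 and 34.6 FPKM in OX with Al. Its highest library was 1.17 times its lowest. Its 4 group means differed by 0.0419 on the log2 scale at most, and 0.347% of all tested genes had a smaller range of group means, while 2.07% had a smaller SD within groups.

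*NAC014* (AT1G33060, chr1:11975307-11978622, minus strand) was also even. It was at 11.2, 10.4 and 10.8 FPKM in WT control, 13.6, 12.3 and 10.9 FPKM in OX control, 10.6, 12.5 and 10.5 FPKM in WT with Al and 10.7, 11.3 and 11.5 FPKM in OX with Al. The OX control libraries held its top value, and its log2 fold changes lay between -0.13 and 0.17 in the 4 comparisons.

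The extremes of the tested members were counted by library. The share of all tested genes with an extreme in each library was not counted. OX control 1 held the highest of 12 values for 5 of the 9 tested members (*NAC078*, *NAC013*, *NAC017*, *NAC016* and *NAC014*), and WT control 3 held the lowest for 4 (*NAC053*, *NAC078*, *NAC062* and *TIP*). OX control 1 was 1 of the 2 control libraries low in the Al-response genes. The other, WT control 1, held 0 of the highest and 0 of the lowest values. Relative to its group mean, the median member was higher by 0.14 (log2) in OX control 1 and stood at -0.18 in WT control 3, where the medians over all genes were 0.00403 and -0.00269. In control, 8 of 9 members had a higher mean in OX than in WT, with a median log2 fold change of 0.22, against -0.00602 over all genes, 48.5% of which were above 0. Without OX control 1 the values of *NAC013*, *NAC078* and *NAC016* fell from 0.26, 0.22 and 0.20 to 0.08, 0.04 and 0.04. Under Al 5 of 9 were above 0 with a median of 0.04, against -0.03 over all genes and 44.8% above 0.

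**Figure D3:**
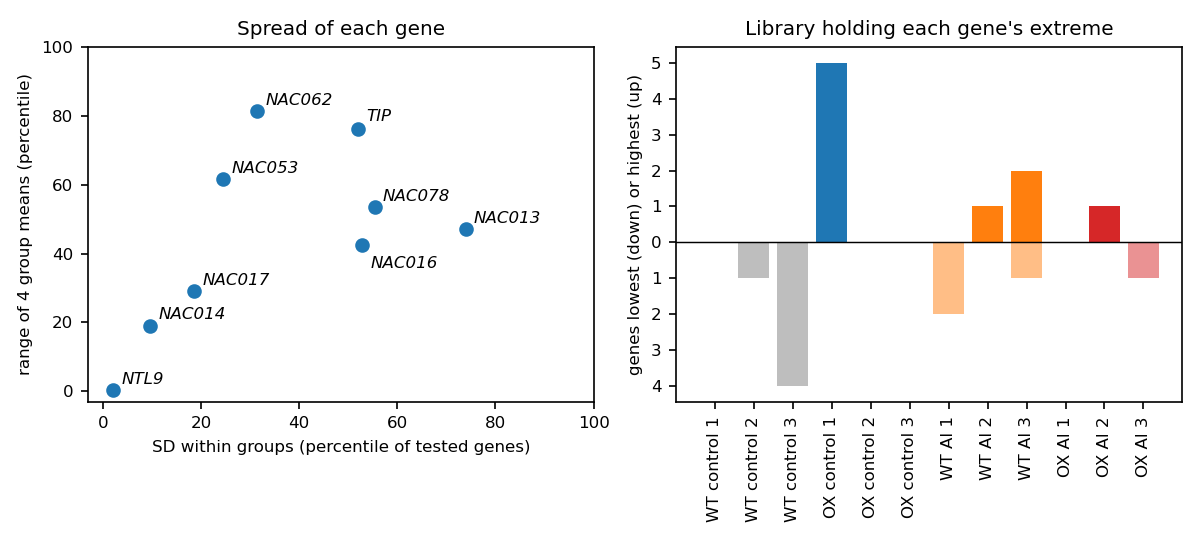
Left, the spread of each of the 9 tested genes, as the percentage of all tested genes with a smaller SD within groups (horizontal axis) and with a smaller range of the 4 group means (vertical axis). Right, number of genes whose highest (upward bars) or lowest (downward, paler bars) value of the 12 libraries lay in each library. *NTL9* lies at 2.07% and 0.347%, *NAC062* has the largest range of group means (81.4%), and OX control 1 holds 5 maxima.

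With Al the members had no common direction. In WT 5 of 9 were above 0 with a median log2 fold change of 0.05 (52.4% of all genes above 0, median 0.01), and in OX 4 of 9 with a median of -0.01 (48.1% of all genes, median -0.01). The control libraries of each genotype enter both the Al and the genotype comparisons, so the values are given side by side and not as separate evidence.

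The genes whose profile over the 12 libraries was nearest to a member were found by the root mean square difference of log2(FPKM + 0.5) values centred on each gene's mean. For *NAC053* these were the GRAS gene *SCL1* (0.0691), *PPH* of chlorophyll breakdown (0.0755) and *VPS60.1* of endosomal sorting (0.0761), where the median of all tested genes was 0.309. For *NAC062*, the member with the largest range of group means, they were the tetraspanin gene *TET8* (0.114), the NAC gene *ATAF2* (0.133) and *AT5G16360* (0.142), where the median was 0.385.

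Of the other NAC genes, 5 further tethered members, *NTM1*, *NAC069*, *NAC060*, *NAC089* and *NAC001*, were tested and none was called in any of the 5 comparisons (limma). The highest in mean were *NAC089*, a regulator of cell death under endoplasmic reticulum stress, with group means of 15.7, 14.2, 15.4 and 19.2 FPKM in WT control, OX control, WT Al and OX Al, *NTM1*, with 15.6, 16.2, 14.2 and 10.3 FPKM, and *NAC001*, with 12.9, 12.8, 11.4 and 10.7 FPKM. At an unadjusted p under 0.05, 1 of the 5 was higher in OX under Al (4.9% of all genes), 2 were higher (6.61%) and 1 was lower (7.08%) with Al in OX, and 0 passed in the other 2 group comparisons. Of 107 other NAC domain genes in the annotation, 68 were tested, and 0 were called in the 5 comparisons. Over both genotypes 7 of the 68 were higher and 2 lower with Al at an adjusted p of at most 0.05 (limma), against 5.13% of all genes in either direction. Of the 68, 2 also met the 2-fold limit, against 343 of 20773 genes in either direction. They were *NAC019* (1.51, limma adjusted p = 0.0254) and *NAC038* (1.01, limma adjusted p = 0.0491), named after their values were seen. Their values with libraries left out were not examined. *ATAF2*, 1 of the 3 most abundant, was among the 7, with 0.49 (limma adjusted p = 0.0273), below the 2-fold limit. The other 2 of the most abundant, *NAC083* and *NAC082*, gave -0.06 and -0.09. For *ATAF2* the fold hardly moved while the adjusted p rose above 0.05 without control replicate 1 of both genotypes (0.47, limma adjusted p = 0.0502). The same held in 6 of the 12 fits that left out 1 library (0.40 to 0.55, limma adjusted p of 0.0243 to 0.0774). Without the 3 libraries high in green-tissue markers the fold was 0.46, and the adjusted p was again above 0.05. Over both treatments, 2 NAC genes were higher in OX at an adjusted p of at most 0.05, against 0.159% of all genes in either direction, and both are named after their values were seen. *NAC095* was at 0.378 and 0.359 FPKM in WT and at 2.51 and 2.76 FPKM in OX without and with Al (log2 fold change 1.86, limma adjusted p = 0.0114). It also met the 2-fold limit, against 22 of 20773 genes in either direction. At these low values the fold depended on the scale, and the call was lost with larger folds under a pseudocount of 0.1 (2.75, limma adjusted p = 0.0622), with limma voom on fragments (3.15, adjusted p = 0.0866) and without the 3 libraries high in green-tissue markers (2.14, limma adjusted p = 0.0535). *NAC097* was at 11.8 and 12.5 FPKM in WT and at 20.4 and 20.7 FPKM in OX (0.75, limma adjusted p = 0.0299). Its fold was below the 2-fold limit. Its adjusted p rose above 0.05 with the replicate number as a block (limma adjusted p = 0.0702) and without a variance trend (limma adjusted p = 0.0523). The same held without control replicate 1 of both genotypes (fold 0.64, limma adjusted p = 0.102) and in 9 of the 12 fits that left out 1 library (folds 0.66 to 0.82). Without the 3 libraries high in green-tissue markers the fold was 0.54, and the adjusted p was again above 0.05 (all folds on the log2 scale). Neither encodes a window above the hydropathy limit in its last 60 codons.

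Genes for proteases and partners of the family included the site proteases *S1P* and *S2P*, the rhomboid genes *RBL1*, *RBL2* and *RBL3*, *RCD1*, which binds *NAC013* and *NAC017* proteins, and *SNRK2.8*, a kinase that phosphorylates *NAC062* protein. Of the 9 tested, 0 were called in any of the 5 comparisons (limma), and the median log2 fold change was -0.02 for OX against WT under Al and -0.06 for Al over both genotypes. *RCD1* was at 224.9, 230.9, 214.1 and 214.1 FPKM in WT control, OX control, WT Al and OX Al. *SNRK2.8* was at 70.1, 88.7, 80.3 and 128.6 FPKM, and *SRO1*, a relative of *RCD1*, at 33.7, 34.5, 31.5 and 32.9 FPKM. *SNRK2.8* gave 0.75 for OX against WT under Al (limma adjusted p = 0.436), with overlapping libraries. At an unadjusted p under 0.05, 1 of the 9 was higher (4.9% of all genes) and 2 were lower (5.92%) in OX under Al.

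Known targets of the members were described by list. Of 7 mitochondrial dysfunction genes downstream of *NAC013* and *NAC017*, 0 were called in any comparison (limma). *AOX1A*, the alternative oxidase gene, was at 58.1, 70.9, 66.0 and 84.7 FPKM in WT control, OX control, WT Al and OX Al, with 0.36 for OX against WT under Al (limma adjusted p = 0.521). The median of the 7 was 0.31 under Al and 0.19 in control for OX against WT, and at an unadjusted p under 0.05 0 passed in those 2 comparisons. *UPOX* was at 25.5, 28.9, 26.8 and 38.2 FPKM, and *OM66* at 20.1, 22.8, 34.8 and 21.9 FPKM in the same order. The 34.8 FPKM of *OM66* had an SD of 19.4 FPKM (n = 3).

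Of 44 proteasome subunit genes, a class induced by *NAC053* and *NAC078* and listed here by annotated name, 43 were tested and 0 were called (limma). Whether each of them is a target was not tested. Under Al 38 of the 43 had a log2 fold change above 0 for OX (44.8% of all genes), with a median log2 fold change of 0.21 against -0.03 over all genes, and 2 of 43 were higher without overlap, against 8.77% of all genes. In control 23 of 43 were above 0 (48.5% of all genes), with a median of 0.02. At an unadjusted p under 0.05, 0 of 43 passed in either. The 3 most abundant, *RPT3*, *RPT2a* and *RPT5A*, gave 0.24, 0.28 and 0.21 under Al with limma adjusted p of 0.666 to 0.805. For Al against control, 5 of 43 were above 0 in WT (52.4% of all genes), with a median of -0.13. In OX, 30 of 43 were above 0 (48.1% of all genes), with a median of 0.07. WT Al 2 and WT Al 3 were high in green-tissue markers, and values of this list without them were not examined. TGGGC was upstream of 22 of the 44 (50%). Subunits of 1 complex vary together between libraries, so their count is not a count of independent genes.

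The NADPH oxidase genes *RBOHA*, *RBOHC* and *RBOHE*, bound by *NAC053* protein in drought, included the 1 listed target called in a group comparison. *RBOHC*, which makes reactive oxygen in growing root hairs, fell with Al in OX by 1.39 on the log2 scale (limma adjusted p = 0.0231), from 17.0 ± 0.141 to 6.53 ± 2.801 FPKM (SD, n = 3 each). In WT it was at 14.8 ± 0.374 and 11.5 ± 2.54 FPKM (SD, n = 3 each), -0.38 (limma adjusted p = 0.557). The call in OX was lost when any library except OX Al 1 was left out of the compared groups, with -1.18 to -1.69 and limma adjusted p of 0.00103 to 0.130, and when the OX libraries were fitted alone (limma adjusted p = 0.0783). Over both genotypes *RBOHA* fell by 0.38 (limma adjusted p = 0.0246) and *RBOHC* by 0.88 (limma adjusted p = 0.0119), while *RBOHE* gave 0.34 (limma adjusted p = 0.0818). Without the 3 libraries high in green-tissue markers both calls were lost with folds of similar size, -0.31 for *RBOHA* (limma adjusted p = 0.162) and -0.85 for *RBOHC* (limma adjusted p = 0.101). Without control replicate 1 of both genotypes *RBOHA* gave -0.30 (limma adjusted p = 0.0597) and *RBOHC* -0.87 (limma adjusted p = 0.0407). Leaving out 1 library lost the call of *RBOHA* in 6 of 12 fits (-0.44 to -0.32, limma adjusted p of 0.0163 to 0.0720) and that of *RBOHC* in 0 of 12. OX against WT under Al gave -0.23, -0.82 and -0.18 for the 3 genes, and 0 were called.

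Of 5 genes of the unfolded protein response, 0 were called in any comparison (limma). *BIP1* and *BIP2*, chaperone genes, were at 206.1 to 226.7 and 135.6 to 161.9 FPKM as group means, and *BZIP60*, a membrane-bound bZIP factor gene, was at 63.0, 68.5, 62.6 and 80.95 FPKM in WT control, OX control, WT Al and OX Al. The defence genes *PR1*, *PR2* and *PR5*, induced through *NAC062* in cold leaves, had 0 to 2 fragments per library and were not tested. Of the *NAC016* targets, the stay-green gene *SGR1* was at 4.76, 5.78, 6.03 and 9.29 FPKM and the senescence gene *NAP* at 23.1, 20.03, 26.9 and 29.2 FPKM, and neither was called. *AREB1*, an abscisic acid response factor gene, was at 10.5, 10.8, 8.26 and 8.19 FPKM. Over both genotypes it fell by 0.36 with Al (limma adjusted p = 0.0463), below the 2-fold limit. That adjusted p rose above 0.05 in 11 of the 12 fits that left out 1 library. The same held without control replicate 1 of both genotypes (-0.35, limma adjusted p = 0.106), with a replicate block (limma adjusted p = 0.0648) and without a variance trend (limma adjusted p = 0.052). Without the 3 libraries high in green-tissue markers the fold was -0.23, and the adjusted p was again above 0.05.

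**Figure D4:**
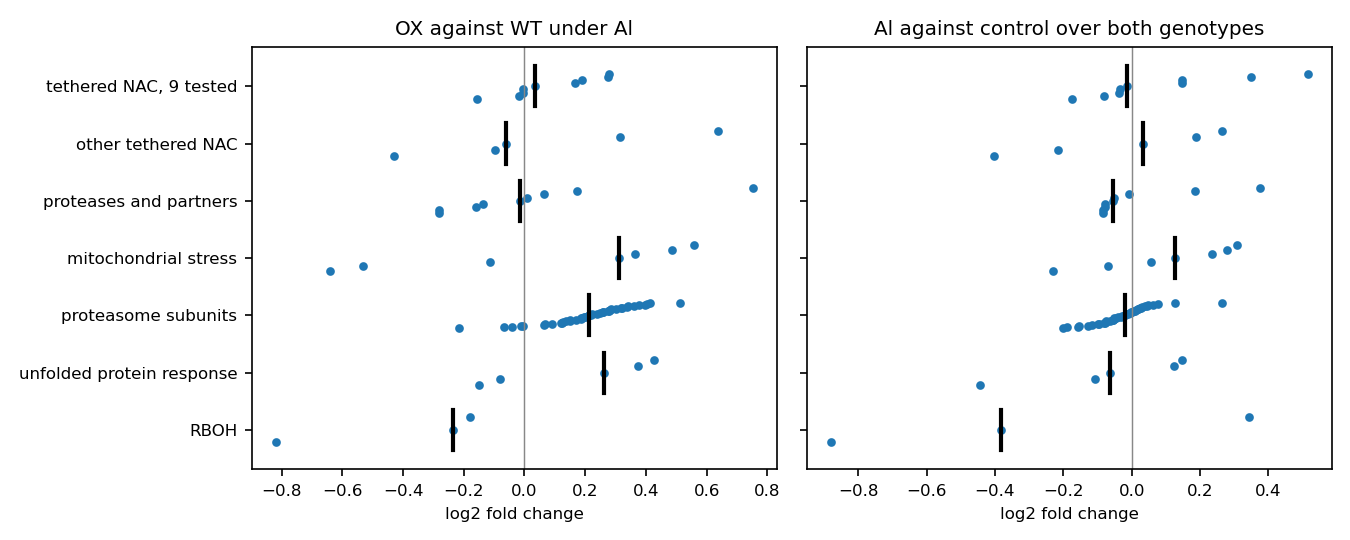
Log2 fold change (horizontal axis) of the tested genes of 7 lists for OX against WT under Al (left) and for Al against control averaged over both genotypes (right). Points are genes and thick lines are list medians. The proteasome subunits have a median of 0.21 on the left and -0.02 on the right, and *NAC062* is the rightmost point of the tethered NAC genes on the right, at 0.52.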

How the data were processed

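RNA of whole roots was measured in 12 libraries of 4 groups, named from the sample labels. The letters and digit that head each column of the table were read as the treatment, genotype and replicate of the sample titles. According to the methods, the authors aligned paired reads of 150 bases to TAIR10 with HISAT2, counted them with HTSeq (0.6.0 in the submitters' processing notes) and deposited FPKM, which scale by gene length and by reads per library. The FPKM were used as deposited. Fragments were read back from their steps for 100% of 25872 genes (tolerance 0.001 steps), up to a common factor per gene. 25579 identifiers were found in RefSeq TAIR10.1.

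The 20773 genes that reached 0.5 FPKM in 3 or more libraries were fitted with limma 3.58.1 (R 4.3.3, variance trend) on log2(FPKM + 0.5), with 1 mean for each group, and were called where the Benjamini-Hochberg adjusted p did not exceed 0.05 and the change was 2-fold or more. All members were named, with values for at most 3 genes of each list, those highest in mean FPKM, and for the genes nearest in profile to *NAC053* and to the member with the largest range of group means. Values of *NAC019*, *NAC038*, *NAC095* and *NAC097* were added after they were seen. Members and lists were chosen with earlier results of these data known. The alternatives were pseudocounts of 0.1 and 1, other filters, quantile and median-ratio scaling, limma voom on the fragments, a fit without trend, the compared groups alone, a replicate block, an adjusted p alone and leaving out each library. The averaged contrasts and leaving out control replicate 1 or the 3 libraries high in green-tissue markers were added after the data were seen. Sequences were handled with Python 3.11.15, pandas 2.3.3, numpy 2.4.6 and Biopython 1.88, and figures drawn with matplotlib 3.10.9. Same-numbered libraries of different groups had residual correlations of -0.247 to 0.286 and were not paired.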

Additional observations from a re-analysis of the deposited data

How the results depend on the processing

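The count of 0 members called was the same in all 98 alternatives run. Log2 fold changes of members were followed in the group comparisons, and in the interaction for *NAC053*, *NAC062* and *TIP* only. Sign changes in the interaction of the other members were not counted. No member value in these group comparisons and interactions crossed the threshold. The Al effect of *NAC062* over both genotypes, which lies outside them, did cross the limit on the adjusted p. This happened when the libraries high in green-tissue markers were left out, as given below. Among the group comparisons and interactions, 14 small values changed sign somewhere, the largest of them 0.20 in size. The cause was not tested.

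With median-ratio scaling, OX against WT under Al turned to 0.028 for *NAC017*, 0.027 for *NAC014* and 0.013 for *NTL9*, and Al in OX to 0.014 for *NTL9*. With quantile normalization *NAC014* turned to 0.039 for OX against WT under Al and the interaction of *NAC053* to -0.00083. Without the 3 libraries high in green-tissue markers, OX against WT under Al turned to 0.10 for *NAC017*, 0.065 for *NAC014*, 0.16 for *TIP* and 0.079 for *NTL9*, and the Al effect of *NAC062* over both genotypes fell short of the threshold at 0.40. Without control replicate 1 of both genotypes, OX against WT in control turned to -0.024 for *NAC016*, Al in OX to 0.15 for *NAC013*, 0.078 for *NAC016* and 0.026 for *NTL9*, and the interaction of *NAC053* to -0.064. The call of *RBOHC* for Al in OX was lost without control replicate 1 (limma adjusted p = 0.0617).

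Leaving out each library in turn gave, for OX against WT under Al, -0.11 to 0.073 for *NAC017*, -0.047 to 0.074 for *NAC014*, -0.057 to 0.17 for *NAC062*, -0.31 to 0.072 for *TIP* and -0.068 to 0.042 for *NTL9*. For Al in WT it gave -0.26 to 0.11 for *NAC013*, -0.18 to 0.0899 for *NAC016*, -0.026 to 0.095 for *NAC014* and -0.084 to 0.026 for *NTL9*. For Al in OX it gave -0.30 to 0.15 for *NAC013*, -0.23 to 0.078 for *NAC016* and -0.031 to 0.026 for *NTL9*, and for the interaction -0.014 to 0.16 for *NAC053*.

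With the replicate number as a block, *NAC062* gave 0.64 for Al in WT (limma adjusted p = 0.0591) and 0.52 over both genotypes (limma adjusted p = 0.00964), and the block changed no call of a member. Over all genes, OX against WT called 8 under Al and 9 in control, Al called 69 in WT and 179 in OX, and the interaction called 0. When 1 library was left out these counts ranged from 1 to 9, 1 to 8, 0 to 78, 3 to 490 and 0 to 0, and under the other alternatives from 1 to 13, 0 to 9, 0 to 141, 39 to 255 and 0 to 1. With 3 libraries per group the intervals above limit what can be seen, and *NTL8* is limited by its 1 to 6 fragments per library.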
